A study of Mus musculus with 5 samples.

Results

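The transcripts of a liver tumor from a 12M mutant mouse were set against those of the liver of a 12M control mouse, gene by gene. Of 46095 gene records, the 11994 with over 1 FPKM in either library were compared. FPKM counts sequenced fragments per kilobase of gene length, scaled to the size of the library, so that levels of different genes can be read side by side. Each gene's difference is given as the log2 ratio of FPKM with 0.1 added, tumor over control. A gene was called higher past a log2 ratio of 1 and lower past -1, that is, past a change of 2-fold. The control was an Srsf2f/f mouse, which carries loxP-flanked Srsf2 alleles without Cre and is labelled wild type. The tumor was a section of the liver of a mutant mouse, in which Cre is driven by the albumin promoter and Srsf2 is deleted in hepatocytes (HKO), while other liver cells keep the gene. All animals were C57BL/6, and these were 12 months old by label, although the codes of the 12M libraries start with M13. The mutant genotype of the tumor is the study's account, since the labels of the tumor library give none, and its code carries the same animal number as the non-tumor section of an HKO liver. The control held 35142289 fragments and the tumor 36102895, and the side libraries between 34969834 and 36104176. The tumor, the deletion and the animal differ together between the sides, so their parts cannot be told apart. Each group is 1 library, so there are no replicates and no tests, and intervals are 95% exact binomial intervals on fragments that cover counting error only, since amplified fragments are not independent molecules. The non-tumor section, a 2M Srsf2f/f liver and a 2M HKO liver, also 1 library each, are given as side values. The non-tumor section shares the control library with the tumor, so its values against that control are not independent of those of the tumor.

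Hepatocellular carcinoma grows from epithelial cells of the liver, whose adult form secretes plasma proteins, clears ammonia, makes bile acids and detoxifies drugs. Fetal liver cells express another set of genes, among them Afp, Igf2 and H19, which are silenced after birth and often return in liver tumors. In the adult lobule, Wnt signals from the central vein and the blood supply from the portal vein sort hepatocyte functions into zones. Around the hepatocytes lie sinusoidal endothelium, resident macrophages called Kupffer cells and stellate cells, and tumors commonly have vessels, macrophages and matrix of other kinds.

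The tumor was still rich in hepatocyte transcripts. Albumin, Alb, stood at 34306 FPKM in the control and 28781 in the tumor, the apolipoprotein genes Apoe and Apoa1 at 20398 and 8829 FPKM in the tumor, and the hepatocyte transcription factor gene Hnf4a at 191 FPKM in the control and 149 in the tumor. Over all genes, 3764 were higher (31.4%), 1094 were lower (9.12%) and 7136 lay between the thresholds (59.5%). The median log2 ratio was 0.50, with quartiles of -0.15 and 1.27. The typical gene was higher in the tumor library. Over the 9099 genes with more than 1 FPKM in all 5 libraries, the median ratio to the geometric mean lay 0.35 higher on the log2 scale in the tumor than in the control. Relative to this scaling shift, 2803 genes were higher and 1621 lower, so the share of higher genes among those called was 77.5% as measured and 63.4% relative to the shift. Levels given from and to run from the control to the tumor. For gene lists, counts and medians cover the members with over 1 FPKM in both libraries, here called measured. Counts relative to the shift follow in brackets, with the number of further members over 1 FPKM in the tumor only or the control only. These had to differ in that direction and are read for nothing, and the remaining members were at or under 1 FPKM in both. The same holds for the direction of single list members named below that were at or under 1 FPKM in just 1 of these libraries.

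The calls were counted by the mean level of the gene. Of the 63 genes with the highest mean levels, 8 were higher and 18 lower, the median being -0.21. Between 1 and 10 FPKM, 2293 of 6697 genes were higher and 435 lower, the median being 0.60. Among the most abundant genes, lower calls thus outnumbered higher ones. The genes between 1 and 10 FPKM include genes over 1 FPKM in the tumor only, so their share of higher calls is not read as a trend with level. The 1994 genes over 1 FPKM in the tumor only had a higher level there by that choice, and the 499 genes over 1 FPKM in the control only a lower one, so their calls support nothing. Among the 9501 genes with over 1 FPKM in both libraries, 2025 were higher (21.3%) and 712 lower (7.49%), with 71.2% between the thresholds and a median of 0.36, and these shares are the background for the lists. Transcripts were spread over more genes in the tumor, where 133 genes made up 50% of the summed FPKM, against 80 in the control. By class, 3509 of 11003 protein-coding genes were higher and 875 lower, whereas of 200 long noncoding RNA genes 68 were higher and 82 lower. In a bulk sample, fewer cells of a type and less RNA per cell cannot be told apart, which holds for every result that follows.

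**Figure D1:**
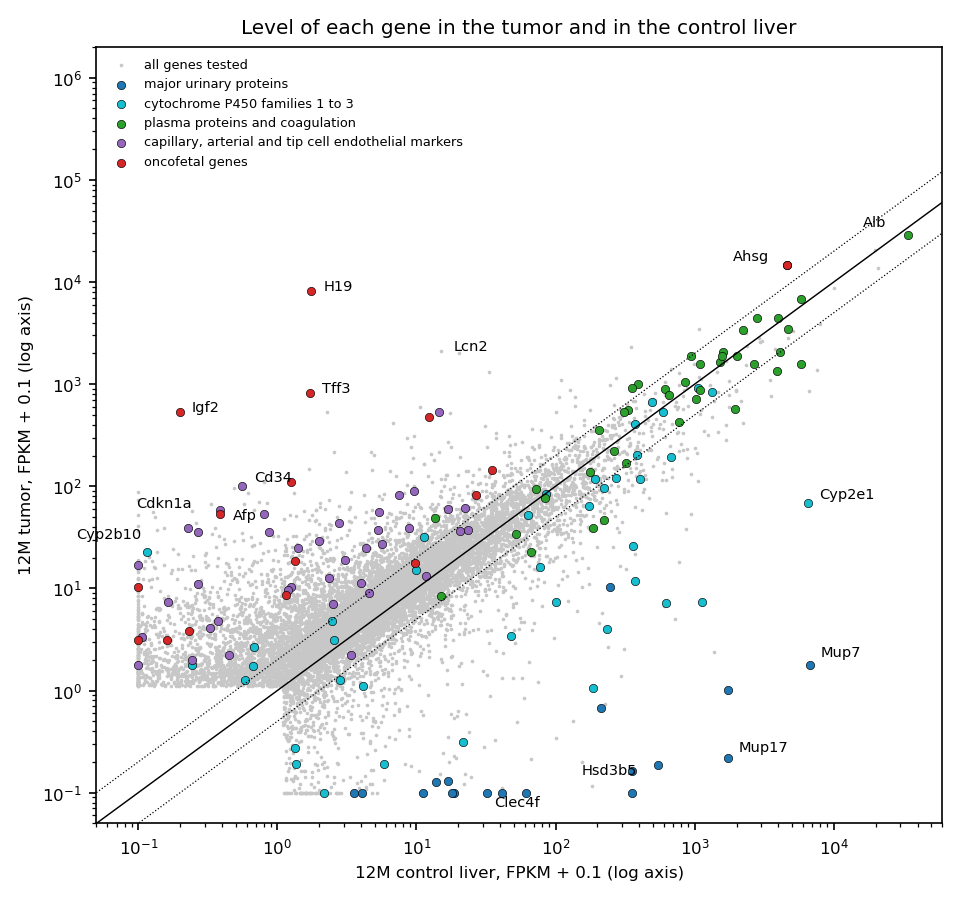
Level of each of the 11994 genes in the 12M control liver (x axis) and in the 12M tumor (y axis), both as FPKM + 0.1 on log axes, 1 point a gene. The solid line marks equal levels and the dotted lines a change of 2-fold. Plasma protein genes lie along the line, major urinary protein genes far below it, and H19 and Igf2 far above it.

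Srsf2 itself, the splicing factor gene deleted in hepatocytes, did not differ by more than the threshold between tumor and control. It stood at 14.6 FPKM in the 2M control and 22.7 in the HKO liver of that age, while the 12M control had 15.7, the non-tumor section 17.6 and the tumor 15.6, a log2 ratio of -0.01. Whole-gene FPKM includes reads from cells without Cre and any transcript left by the deleted allele, so it does not check the deletion. Of 28 measured SR proteins, their kinases and related splicing factors, 2 were higher and 0 lower (0 and 1 relative to the shift, 1 more in the tumor only), with a median of 0.49. The highest was the splicing regulator Rbfox2, at 3.69 FPKM in the control and 9.13 in the tumor, and the lowest Esrp2, an epithelial splicing regulator of the adult liver, at 24.8 FPKM in the control and 14.1 in the tumor.

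The highest log2 ratios of all genes belonged to H19, a noncoding RNA of fetal tissues at chr7:142575530-142578146, and to its imprinted neighbour Igf2, a fetal growth factor at chr7:142650768-142666816. H19 stood at 4.34 FPKM in the 2M control and 1724 in the HKO liver of that age, while the 12M control had 1.65, the non-tumor section 12.1 and the tumor 8234. Its log2 ratio was 12.20, and the plain ratio 4978 with an interval of 4200.1 to 5945. Igf2 stood at 0.24, 28, 0.0982, 0.593 and 534 FPKM in the same order, with a log2 ratio of 11.40. Only 14 fragments of Igf2 were counted in the control against 78274 in the tumor, so its plain ratio of 5442 had a wide interval of 3243 to 9955. Both genes were low in the control livers of both ages and in the non-tumor section, and high in the 2M HKO liver and the tumor.

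Both genes host a microRNA, and the mature sequences are shown because their hosts had the highest ratios. The hairpin of miR-675 lies at chr7:142577064-142577147 inside the H19 record and that of miR-483 at chr7:142654924-142654996 inside the Igf2 record, both on the minus strand of GRCm38.p6. The sequences are from RefSeq, 5′ to 3′, with the seed, bases 2 to 8, in capitals.
mmu-miR-675-5p: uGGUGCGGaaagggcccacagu
mmu-miR-675-3p: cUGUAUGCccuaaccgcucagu
mmu-miR-483-5p: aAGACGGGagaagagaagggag
mmu-miR-483-3p: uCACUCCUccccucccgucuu
Each of these seeds is held by 1 of the 1738 mature miRNAs in the RefSeq table, so none of the 4 shares its seed with another miRNA there. The libraries measured the host transcripts, not the mature miRNAs.

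Some other genes near Igf2 and H19 were also higher as measured. Between bases 141881582 and 143848410 of chromosome 7, 22 other genes with over 1 FPKM in either library were compared. Of these, 15 were higher and 0 lower, the median being 1.37, against 31.4% higher and 9.12% lower over all genes compared. Most of the 15 were over 1 FPKM in the tumor only, which fixes their direction, so this count is read for nothing. Among those over 1 FPKM in both libraries, Lsp1, Mrpl23, Cd81, Cars and Nadsyn1 were higher, at log2 ratios of 1.08 to 1.45. Relative to the scaling shift of 0.35, only Lsp1 stayed higher. It stood at 1.82, 7.04 and 5.14 FPKM in the control, non-tumor section and tumor. Tollip, Mob2, Ctsd, Tssc4, Slc22a18, Nap1l4 and Dhcr7 lay between the thresholds. The noncoding gene Nctc1 stood at 0 FPKM in the control and 2.25 in the tumor, and the noncoding record LOC108167467, which lies 1361 bases from Igf2, at 0 FPKM in the control and 18.9 in the tumor. Among imprinted genes of the region, Phlda2, which restrains placental growth, stood at 0 FPKM in the control and 9.04 in the tumor, Cd81, a tetraspanin, at 160.5 FPKM in the control and 395 in the tumor, and Kcnq1, a potassium channel, at 0.687 FPKM in the control and 5.86 in the tumor. Tollip and Dhcr7, near the ends of the region, had log2 ratios of -0.29 and -0.09. Genes of chromosome 7 as a whole lay 0.34 above the median of all genes. Over the genome, 17 imprinted genes were measured, with 5 higher and 0 lower (4 and 1 relative to the shift, 6 more in the tumor only, 2 more in the control only) and a median of 0.55. Mest and Peg3, expressed from the paternal allele in the fetus, stood at 1.24 FPKM in the control and 18.3 in the tumor and at 0.062 FPKM in the control and 3.0 in the tumor, and Grb10, an adaptor that dampens growth factor signals, at 0.618 FPKM in the control and 4.55 in the tumor. Gnas and Igf2r, the receptor that clears Igf2, had log2 ratios of 0.04 and 0.03, while Slc22a3, a cation transporter, was listed at 2.67 FPKM in the control and at 0 in the tumor.

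Other genes of the IGF axis differed in both directions. Igf1, the growth factor that the adult liver secretes under growth hormone, was lower, from 59 to 4.6 FPKM, and Igfals, which carries it in plasma, from 67.8 to 7.58 FPKM. The binding protein genes Igfbp1, Igfbp3 and Igfbp2 were higher, at 478, 593 and 971 FPKM in the tumor against 12.2, 10.4 and 245 in the control. Igf2bp3 and Igf2bp2, RNA-binding proteins of fetal cells that bind Igf2 transcripts, stood at 3.03 and 3.69 FPKM in the tumor and at 0 and 0.131 in the control. The receptor genes stayed between the thresholds as measured, with Igf2r and Insr at log2 ratios of 0.03 and -0.02, and Ghr, the growth hormone receptor, at -0.72, or -1.08 relative to the shift. Prlr, the prolactin receptor, was lower, from 8.17 to 0.0912 FPKM. Over the growth hormone, Stat5 and IGF list, 18 genes were measured, with 6 higher and 2 lower (6 and 4 relative to the shift, 4 more in the tumor only, 2 more in the control only).

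Of 10 measured oncofetal genes, 9 were higher and 0 lower (9 and 0 relative to the shift, 6 more in the tumor only), with a median of 3.35, against 1.15 for the same members in the non-tumor section. Afp, the fetal counterpart of albumin, stood at 0.521 FPKM in the 2M control and 48.6 in the HKO liver of that age, while the 12M control had 0.286, the non-tumor section 1.45 and the tumor 53.5, a ratio of 187 (95% interval 122 to 302). Ahsg, fetuin A, the plasma protein named for its abundance in the fetus, was higher, from 4648 to 14646 FPKM, behind only Alb and Apoe in the tumor. Spink1, a trypsin inhibitor, stood at 0 FPKM in the control and 10.3 in the tumor, and Scd2, the stearoyl-CoA desaturase of early life, at 1.14 FPKM in the control and 111 in the tumor. Scd1, the adult desaturase, was lower, from 2156 to 690.1 FPKM. The study names several of these markers from the same libraries, so their direction carries no independent weight. Of 23 measured genes that the study names as markers of progenitors, progression and tumor suppression, 10 were higher and 9 lower (10 and 11 relative to the shift, 15 more in the tumor only, 2 more in the control only), and this list was chosen on these same libraries.

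Afp and Alb are neighbours of the same gene family and differed in their ratios, since Alb stayed within the thresholds, at a log2 ratio of -0.25, while Afp stood at 7.11. The genes lie 14111 bases apart, and of 7 other compared genes around them 2, Cxcl1 and Cxcl2, were higher and 1 lower. Cxcl2 was over 1 FPKM in the tumor only, which fixes its direction.

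After H19 and Igf2, many of the highest log2 ratios belonged to genes of other epithelia. Csn3, a milk casein, and Naaladl1, a peptidase of the small intestine, were listed at 0 in the control and at 86.9 and 72.5 FPKM in the tumor, at least 1626-fold and 1900.4-fold higher against a floor of 3 fragments per library. Tff3, a trefoil peptide of mucous epithelia, stood at 1.62, 230 and 826 FPKM in the control, non-tumor section and tumor, and the surface protein gene Ly6d at 2.18, 144 and 530.5. Both were thus already high in the non-tumor section, unlike Naaladl1, which stood at 0.0506 FPKM there. Vil1, villin of the intestinal brush border, stood at 0.0365 FPKM in the control and 37.2 in the tumor, Mogat2, the monoacylglycerol acyltransferase of the gut, at 0.144 FPKM in the control and 56.5 in the tumor, and the membrane mucin Muc13 at 0.00958 FPKM in the control and 15.7 in the tumor. Gpx2, the glutathione peroxidase of gut epithelium, stood at 0.0267 FPKM in the control and 56.5 in the tumor, and Erich4 at 0.0313 FPKM in the control and 50.4 in the tumor. The latter rests on 1 fragment in the control, so its plain ratio of 1612 has an interval of 289 to 63706. Of 7 measured epithelial genes of gut and stomach, 3 were higher and 1 lower (3 and 1 relative to the shift, 8 more in the tumor only), with a median of 0.14. Which cells of the section hold these transcripts was not tested. Of the 41 genes of this list, most were at or under 1 FPKM in the control. The lower member was Fabp2, a fatty acid binding protein shared by gut and liver, from 74.1 to 17.9 FPKM.

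Further genes at the top came from several functions. Timp4, an inhibitor of matrix proteases, and Wfdc3, of a family of protease inhibitors, were listed at 0 in the control and at 36.5 and 40.4 FPKM in the tumor, at least 707-fold and 487-fold higher. Cpe, which trims peptide hormones, stood at 0.0524 FPKM in the control and 39 in the tumor, with a ratio of 745 (95% interval 291 to 2736). Cdkn1a, the cell cycle inhibitor p21, stood at 0.234 FPKM in the control and 66.5 in the tumor, and Cyp2b10, a drug-induced cytochrome, at 0.0152 FPKM in the control and 22.6 in the tumor. In all, 34 genes with 0 fragments in the control had over 5 FPKM in the tumor, among them Elfn2 at 6.94, the membrane transferrin Mfi2 at 12.3, the hormone Stc1 at 8.35 and the ubiquitin hydrolase Uchl1 at 15.2 FPKM. In the opposite direction, 9 genes with 0 fragments in the tumor had over 5 FPKM in the control, and most of these were Mup genes.

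**Figure D2:**
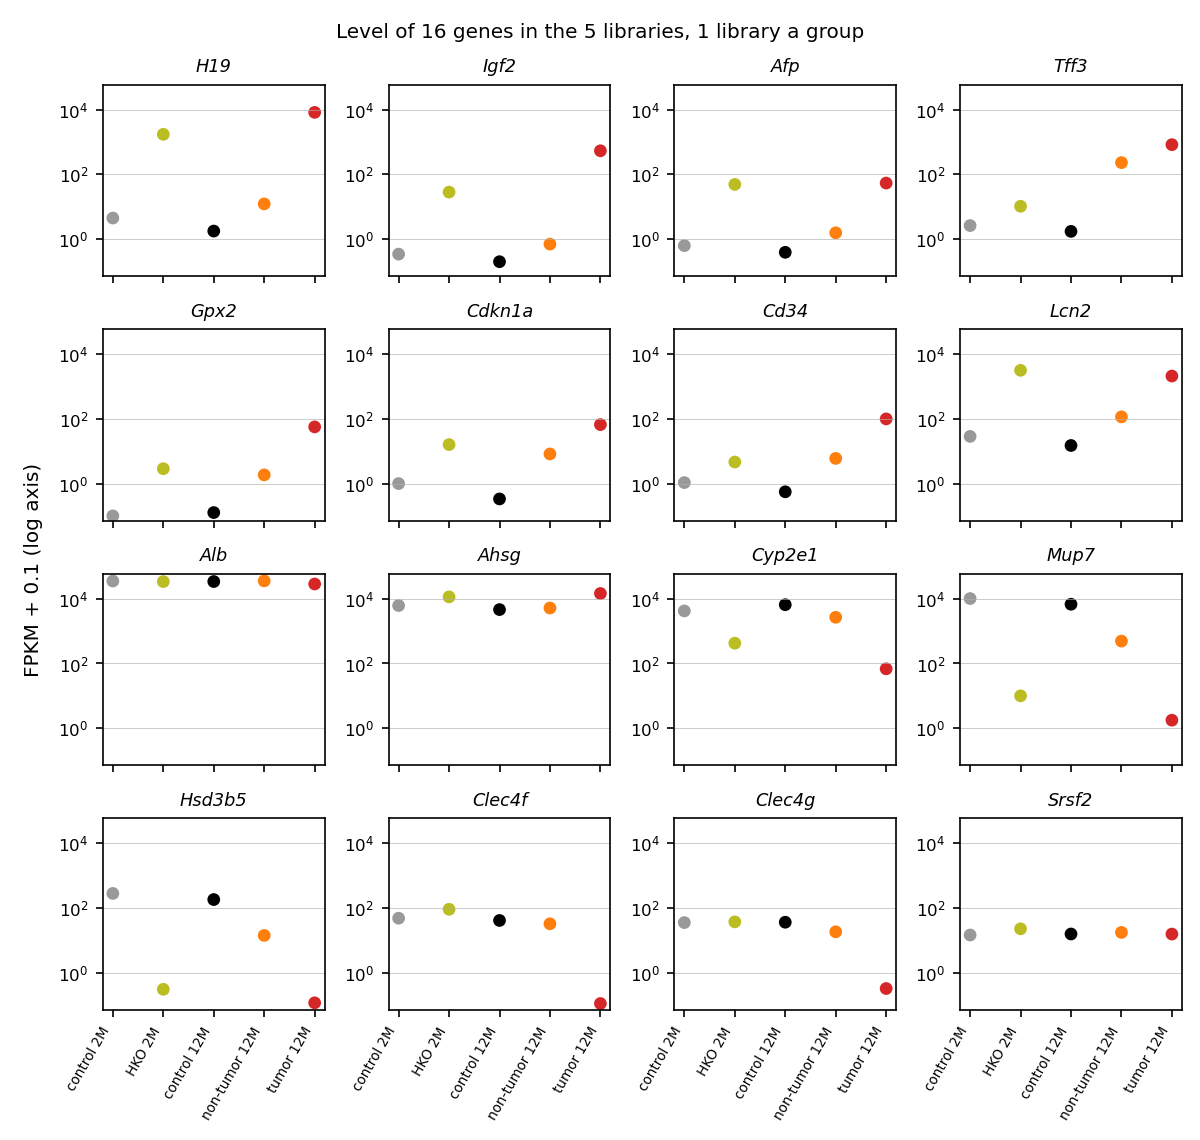
FPKM + 0.1 (y axis, log scale) of 16 genes in the 5 libraries (x axis), 1 point a library. The tumor is the highest library for H19, Igf2, Tff3, Gpx2, Cdkn1a, Cd34 and Ahsg and the lowest for Cyp2e1, Mup7, Hsd3b5, Clec4f and Clec4g, while Alb and Srsf2 stay level.

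The lowest log2 ratios belonged to the major urinary proteins, pheromone carriers that the male liver secretes in large amounts. Of 21 Mup genes, 18 had over 1 FPKM in the control, and 16 of these were at or under 1 FPKM in the tumor, which fixes their direction. The median of the 18 was -8.32 in the tumor and -2.20 in the non-tumor section. Mup7 stood at 10201 FPKM in the 2M control and 9.89 in the HKO liver of that age, while the 12M control had 6796, the non-tumor section 493 and the tumor 1.66. Mup17 stood at 1741 FPKM in the control and 0.118 in the tumor, and Mup3, at 353 FPKM in the control, was listed at 0 in the tumor and was at least 3856-fold lower. The family made up 2.29% of the summed FPKM of the control and 0.00277% of that of the tumor. Mup genes are close copies, and levels of single members are uncertain. Cut into windows of 50 bases, 81.55% of the transcript sequence of the median member recurs in another of the 18 members. This share is 4.44% for Mup20, whose level is therefore the least mixed with other members, at 245, 596 and 10.3 FPKM in the control, non-tumor section and tumor. Mup20 was thus higher in the non-tumor section than in the control and lower in the tumor. On chromosome 4, 15 records were compared between bases 60218620 and 61959979, namely 8 Mup genes, 3 Mup pseudogene records and 4 other records. All 15 were lower, against 9.12% of all genes compared. Only Gm21320, from 1379 to 2.31 FPKM, and Mup-ps19, from 50.6 to 2.81 FPKM, were over 1 FPKM in both libraries. The rest were over 1 FPKM in the control only, which fixes their direction.

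Other male-biased liver genes were lower with the Mup genes, and of 19 male-biased genes measured, some of them Mup genes, 1 were higher and 14 lower (1 and 15 relative to the shift, 5 more in the control only), with a median of -2.11. Hsd3b5, a steroid reductase of the male liver, stood at 183 FPKM in the control and 0.0172 in the tumor, where it rests on 1 fragment, Slco1a1, an organic anion uptake carrier, at 66.7 FPKM in the control and 0.112 in the tumor, and Ugt2b1, a glucuronosyltransferase, at 294 FPKM in the control and 1.27 in the tumor. Elovl3 and Cyp7b1 were also lower, from 67.7 to 3.82 FPKM and from 123 to 7.4 FPKM. Cyp2d9, another male-biased cytochrome, had a log2 ratio of -0.21, and Moxd1 was higher, from 1.06 to 24.5 FPKM. The female-biased list gave 4 higher and 0 lower (4 and 1 relative to the shift, 4 more in the tumor only, 4 more in the control only) of 6 measured. Bcl6, a repressor that sustains male-biased expression, stood at 9.83 FPKM in the control and 13.2 in the tumor. Y-linked transcripts were present in both libraries and Xist was listed at 0 in all 5, as in male animals.

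Drug-metabolizing enzymes were lower in large part. Of 28 measured cytochromes of families 1 to 3, 1 were higher and 15 lower (1 and 18 relative to the shift, 5 more in the tumor only, 7 more in the control only), with a median of -1.16. Cyp2e1, the ethanol-oxidizing cytochrome, stood at 6579, 2689 and 68.2 FPKM in the control, non-tumor section and tumor. In the Cyp2c cluster of chromosome 19, 11 of 12 genes with over 1 FPKM in either library were lower, against 9.12% of all genes compared. Cyp2c29 stood at 1125 FPKM in the control and 7.26 in the tumor and Cyp2c50 at 617 FPKM in the control and 7.15 in the tumor. The exception was Cyp2c55, at 2.39 FPKM in the control and 4.69 in the tumor. Cyp2c38, Cyp2c39, Cyp2c40, Cyp2c67 and Cyp2c69 were over 1 FPKM in the control only, which fixes their direction. The Cyp2d genes stayed closer to the control, with Cyp2d26 at a log2 ratio of -0.15 and Cyp2d10 at 0.41. Cyp3a11, the main cytochrome of the 3a family, was between the thresholds at 1322 FPKM in the control and 828 in the tumor. Cyp2b10 was higher while Nr1i3, the nuclear receptor CAR that induces it, was lower, from 49.2 to 1.24 FPKM. Nr1i2, the receptor PXR, stood at 40.7 FPKM in the control and 81.8 in the tumor.

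Enzymes that conjugate or hydrolyze drugs were lower in large part too. Of 61 measured, 6 were higher and 28 lower (4 and 35 relative to the shift, 4 more in the control only), with a median of -0.93. The carboxylesterase genes Ces3a and Ces1c were lower, from 1058 to 112 FPKM and from 1679 to 395 FPKM, and so was Sult2a8, a bile acid sulfotransferase, from 237 to 2.55 FPKM. The glutathione transferases of the alpha and mu classes Gsta1 and Gstm3 were higher, from 1.19 to 32.8 FPKM and from 31.1 to 389 FPKM, whereas Gsta3, the most abundant of the alpha class in the control, was lower, from 1772 to 592 FPKM. Both higher genes are targets of Nrf2, the regulator of the response to oxidants.

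Of 25 measured Nrf2 targets, 6 were higher and 2 lower (6 and 2 relative to the shift, 4 more in the tumor only), with a median of 0.64. The share of higher members was near the background of 21.3%, so this is no result about the list. Besides Gpx2, Cbr3, a carbonyl reductase, was higher, at 0.707 FPKM in the control and 111 in the tumor. Slc7a11, the cystine importer, was listed at 0 in the control and stood at 2.52 FPKM in the tumor, and Nqo1, a quinone reductase, stood at 5.5 FPKM in the control and 16 in the tumor. Other members did not share this direction, as Hmox1 and Txnrd1 had log2 ratios of -0.34 and 0.04, and Prdx1, a peroxide-removing enzyme, and Me1, malic enzyme, were lower, from 825 to 336 FPKM and from 65.7 to 22 FPKM. Srxn1, which repairs oxidized peroxiredoxins, stood at 13.1, 33.6 and 51.9 FPKM in the control, non-tumor section and tumor. Its promoter is shown because it carries repeated motifs of the kind AP-1 factors bind, and Jun and Fos, which encode AP-1 factors, were higher. The 250 bases before the start are from RefSeq, chr2:152105274-152105523 of GRCm38.p6, plus strand, with TGANTCA, its own reverse, in capitals.
Srxn1: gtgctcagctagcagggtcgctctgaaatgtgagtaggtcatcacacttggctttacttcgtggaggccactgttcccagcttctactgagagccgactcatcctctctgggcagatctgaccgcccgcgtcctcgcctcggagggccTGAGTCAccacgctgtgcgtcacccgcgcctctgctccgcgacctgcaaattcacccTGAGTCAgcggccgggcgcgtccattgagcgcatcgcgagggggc
The motif occurs 2 times, 102 and 45 bases before the start, and 6.75% of promoter windows hold it at least 1 time.

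Genes of the pericentral zone were lower in the tumor. Of 18 measured pericentral and Wnt target genes, 1 were higher and 12 lower (1 and 13 relative to the shift, 3 more in the tumor only, 8 more in the control only), with a median of -1.85, whereas over the same members the median of the non-tumor section was -0.07. Glul, glutamine synthetase of the innermost pericentral cells, stood at 373, 418 and 62.1 FPKM in the control, non-tumor section and tumor. Oat, ornithine aminotransferase of the same cells, was lower, from 600 to 6.57 FPKM, and Slc1a2, a glutamate transporter, from 22 to 0.0215 FPKM. The Wnt feedback genes Axin2, Nkd1 and Sp5 were lower too, from 2.07 to 0.0999 FPKM, from 1.96 to 0.122 FPKM and from 2.33 to 0.0132 FPKM, as were Lect2 and Tbx3, from 64.4 to 1.8 FPKM and from 6.93 to 0.232 FPKM. Wnt2 and Rspo3, which endothelial cells secrete, stood at 1.21 and 1.98 FPKM in the control and 0.00506 and 0.37 in the tumor. Myc, Ccnd1 and the transporter gene Slc1a4 were higher, of which Myc stood at 0.807, 14 and 15 FPKM in the control, the non-tumor section and the tumor. Ctnnb1, which encodes beta-catenin, had a log2 ratio of 0.99.

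Periportal genes were mixed. Of 25 measured, 6 were higher and 10 lower (6 and 12 relative to the shift), with a median of -0.28. Pck1, the gluconeogenic enzyme, stood at 860, 843 and 37.7 FPKM in the control, non-tumor section and tumor, and Ass1 and Arg1, of the urea cycle, were lower, from 1239.5 to 318 FPKM and from 796 to 259 FPKM. On the other side, Hsd17b6 and Aldh1b1 were higher, from 37 to 335 FPKM and from 20.4 to 192 FPKM, and Gldc, which cleaves glycine, from 26.2 to 72.1 FPKM. Of 15 measured genes of the urea cycle and ammonia handling, 0 were higher and 12 lower (0 and 13 relative to the shift, 1 more in the tumor only), with a median of -1.45. Cps1, its first enzyme, stood at 216 FPKM in the control and 77 in the tumor. Gls2, the liver enzyme that splits glutamine, was lower, from 149.9 to 56.7 FPKM.

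Amino acid catabolism was lower in the same way, with 1 higher and 18 lower (1 and 23 relative to the shift, 1 more in the control only) of 36 measured and a median of -1.0. Mat1a, which makes the methyl donor of the adult liver, was lower, from 934 to 133 FPKM, Gnmt, which consumes it, from 2239 to 414 FPKM, and Hpd, of tyrosine breakdown, from 1671 to 281 FPKM. Bhmt and Cdo1, of methionine and cysteine metabolism, hardly differed, at log2 ratios of -0.14 and -0.12. The list of serine, folate and glutathione synthesis gave 3 higher and 3 lower (2 and 5 relative to the shift, 8 more in the tumor only) of 15 measured. Psat1 and Phgdh, of serine synthesis, stood at 0.149 FPKM in the control and 6.29 in the tumor and at 0.106 FPKM in the control and 2.71 in the tumor, while Shmt1, which splits serine, was lower, from 84.1 to 24.9 FPKM. The asparagine synthetase gene Asns was lower, from 9.07 to 1.2 FPKM, and was at 0.467 FPKM in the non-tumor section.

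In glucose metabolism, the liver forms of pyruvate kinase and of the glucose transporter were lower, and their forms of other tissues higher. The list of gluconeogenesis and glycogen genes gave 2 higher and 9 lower (2 and 12 relative to the shift, 1 more in the control only) of 21 measured, with a median of -0.87. The glycolysis list of proliferating and fetal cells gave 8 higher and 1 lower (7 and 2 relative to the shift, 4 more in the tumor only) of 23, with a median of 0.62. Pklr, liver pyruvate kinase, stood at 143 FPKM in the control and 51.7 in the tumor, and Pkm, the muscle and fetal form, at 7.97 FPKM in the control and 85 in the tumor. Fbp1, which opposes glycolysis, was lower, from 619.6 to 115 FPKM, and G6pc, which releases glucose, from 211 to 47.4 FPKM. The hexokinases Hk1 and Hk2 were higher, from 1.12 to 7.52 FPKM and from 0.155 to 1.91 FPKM. The glucose transporters differed likewise, with Slc2a2 of hepatocytes at 106 FPKM in the control and 25.1 in the tumor and Slc2a1 of other tissues at 5.99 FPKM in the control and 18.6 in the tumor. Ldha and Gapdh hardly differed, with log2 ratios of -0.07 and 0.23.

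Genes of lipid synthesis were lower in the tumor and not in the non-tumor section. Of 28 measured genes of cholesterol synthesis and uptake, 3 were higher and 18 lower (2 and 20 relative to the shift, 1 more in the control only), with a median of -1.31 in the tumor and 0.80 in the non-tumor section against the same control and over the same members. Fdps, of isoprenoid synthesis, stood at 301, 523 and 44.3 FPKM in the control, non-tumor section and tumor, with its highest level in the non-tumor section and its lowest in the tumor. The sterol exporters Abcg5 and Abcg8 went the other way, with Abcg5 higher, from 19.4 to 50.4 FPKM, and Abcg8 at a log2 ratio of 0.72, and Insig2, which holds back sterol synthesis, was higher, from 36.7 to 109 FPKM. Srebf2, the regulator of the pathway, had a log2 ratio of 0.57.

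Of 36 measured genes of fatty acid synthesis and lipid storage, 4 were higher and 18 lower (4 and 23 relative to the shift, 1 more in the tumor only, 1 more in the control only), with a median of -0.98. Fasn, fatty acid synthase, stood at 70.5, 136 and 23.2 FPKM in the control, non-tumor section and tumor, and Thrsp, a lipogenic cofactor, was lower, from 943 to 52.9 FPKM. Among fatty acid binding proteins, Fabp1 of hepatocytes was lower, from 6586 to 865 FPKM, while Fabp4, of fat cells and capillaries, was higher, from 14.5 to 538 FPKM, and so was Fabp5, from 12.8 to 110.5 FPKM. Of 33 measured genes of fatty acid oxidation and ketogenesis, 2 were higher and 12 lower (1 and 19 relative to the shift, 6 more in the control only), with a median of -0.69. The lowest ratios were those of Cyp4a14 and Cyp4a10, fatty acid hydroxylases induced by Ppara, from 156 to 0.0999 FPKM and from 226 to 0.637 FPKM. All 6 Cyp4a genes of chromosome 4 with over 1 FPKM in either library were lower, against 9.12% of all genes compared. The male-biased Cyp4a12a and Cyp4a12b were the least so, at log2 ratios of -2.11 and -1.56. Only these had over 1 FPKM in both libraries, and the direction of the others was fixed by their level in the tumor. The mitochondrial beta-oxidation enzymes Acadm and Hadha had log2 ratios of -0.25 and -0.35, and Ppara itself stood at 54.3 FPKM in the control and 29.9 in the tumor.

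The named sinusoidal uptake carriers of bile acids were lower, whereas the named canalicular exporters stayed between the thresholds as measured. Of 25 measured, 1 were higher and 10 lower (0 and 12 relative to the shift, 4 more in the tumor only, 4 more in the control only). The sinusoidal uptake carriers Slc10a1 and Slco1b2 were lower, from 289 to 16.5 FPKM and from 206 to 4.46 FPKM. The synthetic enzymes Cyp7a1 and Cyp8b1 stood at 11.1 and 133 FPKM in the control and 0.471 and 0.398 in the tumor. Both were over 1 FPKM in the control only, which fixes their direction. The canalicular exporters Abcb11 and Abcc2 stayed between the thresholds as measured, at log2 ratios of -0.69 and -0.59. Relative to the scaling shift of 0.35, Abcb11 was just past the lower threshold. Nr0b2, the repressor of bile acid synthesis, was higher, from 27 to 59 FPKM. The basolateral exporters Abcc4 and Slc51b, which carry bile acids back to blood, were over 1 FPKM in the tumor only, which fixes their direction. They stood at 0.72 and 0.583 FPKM in the control and 9.46 and 26.5 in the tumor.

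Secreted plasma proteins were largely kept. Of 40 measured plasma protein and coagulation genes, 5 were higher and 6 lower (3 and 11 relative to the shift), and their median was 0.01. The list made up 17.6% of the summed FPKM of the control and 18.8% of that of the tumor. Fibrinogen, antithrombin and transferrin lay between the thresholds, with Fgb at 2224 FPKM in the control and 3421 in the tumor, Serpinc1 at 1094 FPKM in the control and 876 in the tumor and Trf at 5842 FPKM in the control and 6837 in the tumor. In the serpin cluster of chromosome 12, 10 of 18 genes with over 1 FPKM in either library were lower and 2 higher. Over all genes compared, 9.12% were lower and 31.4% higher. Of the lower records, Serpina9, Gm31271, Serpina4-ps1 and Serpina3f were over 1 FPKM in the control only, which fixes their direction. Serpina1e, an alpha-1-antitrypsin, and Serpina3k were lower, from 5799.5 to 1589 FPKM and from 7602 to 1382 FPKM, while Serpina3n, an inflammatory member, and Serpina12 were higher, from 138 to 606 FPKM and from 23 to 101 FPKM. Some of these serpins are close copies, and their single levels are uncertain.

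Of 22 measured genes of apolipoproteins and lipoprotein assembly, 3 were higher and 8 lower (3 and 8 relative to the shift). Apob and Apoh had log2 ratios of -0.24 and -0.01. Apoa5 was lower, from 624 to 54.8 FPKM and hepatic lipase, Lipc, from 111 to 12.1 FPKM, whereas Apoa4 was higher, from 350.1 to 2289.7 FPKM and lipoprotein lipase, Lpl, which the adult liver hardly makes, from 2.24 to 73.6 FPKM. Of 22 measured complement genes, 1 were higher and 6 lower (1 and 6 relative to the shift, 1 more in the tumor only), and C3, the central component, stood at 1547 FPKM in the control and 2082 in the tumor. Mbl2, a mannose-binding lectin, was the lowest, from 309.9 to 2.44 FPKM. The acute phase list gave 12 higher and 5 lower (8 and 6 relative to the shift) of 26, with Lcn2, an iron-trapping lipocalin, at 14.9, 116 and 2118 FPKM in the control, non-tumor section and tumor, while serum amyloid A1, Saa1, had a log2 ratio of 0.03. Hamp, which encodes hepcidin, the hormone that limits iron uptake, was lower, from 322 to 15.4 FPKM, while its paralog Hamp2 was higher, from 18 to 43.9 FPKM.

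**Figure D3:**
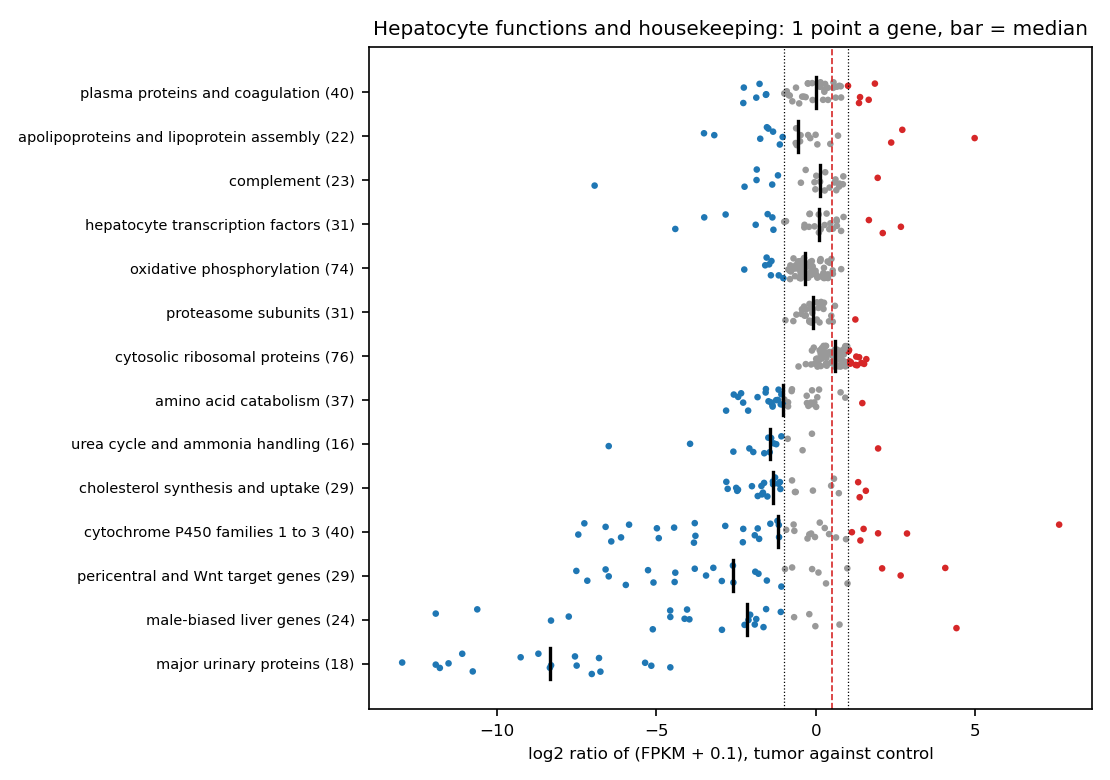
Log2 ratio of FPKM + 0.1, tumor against control (x axis), of each member of 14 gene lists with over 1 FPKM in either library (rows, with their number), 1 point a gene. Red points are higher, blue points lower and grey points between the dotted thresholds, black bars are medians, and the dashed red line is the median of all genes, 0.50. The medians of plasma protein, complement and proteasome genes lie near 0, and the lists toward the bottom reach far to the left.

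The transcription factors that define hepatocytes differed in both directions, and most lay between the thresholds, as did 71.2% of all genes over 1 FPKM in both libraries. Of 29 measured, 3 were higher and 5 lower (3 and 7 relative to the shift, 2 more in the control only), with a median of 0.10. Cebpa and Foxa2 had log2 ratios of 0.10 and -0.19. The related Gata factors differed in direction, with Gata4 lower, from 7.04 to 1.83 FPKM, and Gata6 higher, from 1.43 to 9.57 FPKM. Onecut1, a factor of liver development, was lower, from 7.38 to 0.562 FPKM, while Onecut2 had a log2 ratio of 0.27. Of 28 measured nuclear receptors, 6 were higher and 4 lower (2 and 7 relative to the shift, 1 more in the control only), with the bile acid receptor Nr1h4 lower, from 78.6 to 28.3 FPKM, and the retinoic acid receptor Rarg higher, from 2.86 to 21.4 FPKM.

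Genes of the circadian clock were lower in part. Of 19 measured, 0 were higher and 7 lower (0 and 10 relative to the shift, 2 more in the tumor only, 2 more in the control only), with a median of -0.81. The activators Arntl, also known as Bmal1, and Npas2 were over 1 FPKM in the tumor only, which fixes their direction. Arntl stood at 0.613 FPKM in the control and 7.82 in the tumor, and Npas2 at 0.0408 and 2.89. Clock, the usual partner of Arntl, had a log2 ratio of 0.39. Genes that these activators drive were lower, with Dbp at 82.7 FPKM in the control and 11.6 in the tumor. Usp2 stood at 10.3 FPKM in the control and 1.03 in the tumor and Tef at 60.4 FPKM in the control and 21.1 in the tumor. Ciart, a repressor of the clock, stood at 10.4 FPKM in the 2M control and 5.96 in the HKO liver of that age, while the 12M control had 4.32, the non-tumor section 3.44 and the tumor 0.138, a log2 ratio of -4.22. In the non-tumor section, Dbp stood at 56.2 FPKM. The times of day at which the livers were taken are not given in the sources used here, and their part in these values was not tested. The promoter of Ciart is shown because Arntl and its partners bind the E-box CACGTG, which is its own reverse and is printed in capitals. The sequence is that of RefSeq, GRCm38.p6, at chr3:95882229-95882478, minus strand.
Ciart: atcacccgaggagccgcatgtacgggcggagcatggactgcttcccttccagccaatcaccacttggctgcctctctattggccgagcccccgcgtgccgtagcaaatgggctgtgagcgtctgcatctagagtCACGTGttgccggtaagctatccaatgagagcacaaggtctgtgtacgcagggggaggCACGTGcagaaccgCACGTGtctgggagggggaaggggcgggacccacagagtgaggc
It holds the motif 3 times, at 116, 58 and 44 bases before the start, and 6.02% of promoter windows hold it at least 1 time.

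The cell cycle inhibitor genes Cdkn1a, Cdkn2a and Cdkn2b were over 1 FPKM in the tumor only, and genes of division were scarce in both libraries. Cdkn1a, a target of p53, stood at 0.898 FPKM in the 2M control and 15.9 in the HKO liver of that age, while the 12M control had 0.234, the non-tumor section 8.13 and the tumor 66.5, with a ratio of 284 (95% interval 175 to 497). Cdkn2a and Cdkn2b, which block the cyclin D kinases, were higher, from 0.306 to 4.8 FPKM and from 0.123 to 6.46 FPKM. Of 18 measured genes of cyclins D, their kinases and Cdk inhibitors, 5 were higher and 0 lower (3 and 1 relative to the shift, 6 more in the tumor only). Their median of 0.34 was near the background of 0.36, so this is no result about the list. Of 40 genes of mitosis, only 4 were measured, of which 3 were higher and 0 lower (2 and 0 relative to the shift, 18 more in the tumor only). Ube2c, which drives exit from mitosis, reached 6.4 FPKM in the tumor from 0.306, and Plk1, a mitotic kinase, 3.3 from 0.0771. Of 24 measured DNA replication genes, 6 were higher and 1 lower (1 and 1 relative to the shift, 11 more in the tumor only, 1 more in the control only). Their median of 0.26 was near the background of 0.36, so this too is no result about the list. Mcm10 was lower, from 20.1 to 1.63 FPKM. Mcm6, of the replicative helicase, was over 1 FPKM in the tumor only, at 0.681 FPKM in the control and 10.9 in the tumor. Ccnd1, cyclin D1, stood at 4.22, 24.2 and 27.2 FPKM in the control, non-tumor section and tumor.

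Of 24 measured p53 targets, 10 were higher and 2 lower (6 and 3 relative to the shift, 8 more in the tumor only), with a median of 0.70. Btg2 and Phlda3, which restrain growth, were higher, from 3.26 to 88.1 FPKM and from 0.31 to 11.7 FPKM, and Trp53 itself from 8.96 to 26.9 FPKM. Mdm2 and Fas, also targets, had log2 ratios of 0.14 and -0.26, and Perp and Plk3 were lower, from 41.8 to 13 FPKM and from 17.3 to 4.32 FPKM. Of 25 measured genes of the Bcl2 family and death receptors, 9 were higher and 0 lower (7 and 1 relative to the shift, 8 more in the tumor only). The highest of those measured was Tnfrsf12a, the receptor of Tweak, from 6.37 to 140 FPKM, while Mcl1, which protects from death, had a log2 ratio of 0.15. Casp12, at 0.208 FPKM in the control and 16 in the tumor, was over 1 FPKM in the tumor only, which fixes its direction.

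Genes that follow growth signals were mostly higher. Of 16 measured MAPK and Erk response genes, 14 were higher and 0 lower (11 and 0 relative to the shift, 12 more in the tumor only), with a median of 1.66. Dusp4 and Dusp5, phosphatases that feed back on Erk, stood at 0.739 and 0.197 FPKM in the control and 11.6 and 6.04 in the tumor. The early gene Ier3 stood at 0.274 FPKM in the control and 19.7 in the tumor. These genes were over 1 FPKM in the tumor only, which fixes their direction. Of 17 AP-1 and immediate early genes, 12 were higher and 1 lower (10 and 1 relative to the shift, 5 more in the tumor only), with Jun at 5.23 FPKM in the control and 30.04 in the tumor, Egr1 at 2.58 FPKM in the control and 49.96 in the tumor and Fos at 0.34 FPKM in the control and 6.26 in the tumor. The ligands Hbegf and Pdgfb were higher, from 0.156 to 8.36 FPKM and from 0.197 to 8.58 FPKM, whereas Egfr, the receptor that Hbegf binds, was lower, from 86 to 20.6 FPKM. Transcripts do not measure the activity of kinases.

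Of 14 measured genes of the Notch pathway, 7 were higher and 1 lower (6 and 2 relative to the shift, 8 more in the tumor only), with a median of 1.05. The ligand Dll4, of vessels, was higher, from 1.89 to 29.2 FPKM. The ligand Jag2 stood at 0.0058 FPKM in the control and 4.57 in the tumor, and the receptor Notch3 at 0.179 and 4.91. The targets Hey1, Nrarp and Sox9 stood at 0.168, 0.364 and 0.583 FPKM in the control and 11, 14.4 and 18.4 in the tumor. All of these but Dll4 were over 1 FPKM in the tumor only, which fixes their direction. Of 21 measured genes of the Yap and Hippo pathway, 11 were higher and 0 lower (8 and 2 relative to the shift, 8 more in the tumor only), with Ctgf, a matrix signal, at 3.77 FPKM in the control and 18.2 in the tumor, while Yap1 had a log2 ratio of 0.22. Of 25 measured TGF-beta pathway genes, 8 were higher and 3 lower (5 and 3 relative to the shift, 10 more in the tumor only, 2 more in the control only). The ligand Tgfb1 was higher, from 4.53 to 24.9 FPKM, and the receptor Tgfbr2 from 4.96 to 43.7 FPKM. Tgfb2, at 0.0419 FPKM in the control and 3.42 in the tumor, was over 1 FPKM in the tumor only, which fixes its direction. Inhbc and Inhbe, activin subunits of the liver, were lower, from 50.7 to 10.1 FPKM and from 37.7 to 8.33 FPKM. Inhbb, over 1 FPKM in the tumor only, stood at 0.461 FPKM in the control and 29.4 in the tumor.

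Several markers of progenitor and biliary cells were higher, while Krt19, Krt7 and Epcam, the defining markers of bile ducts, were not. Of 10 measured, 7 were higher and 0 lower (7 and 0 relative to the shift, 11 more in the tumor only), with a median of 1.85 in the tumor and 1.24 over the same members in the non-tumor section. Among the measured members, Spp1, osteopontin, stood at 20.1, 248 and 2035 FPKM in the control, non-tumor section and tumor. Sox9, Itga6 and the tetraspanin Tspan8 were over 1 FPKM in the tumor only, which fixes their direction. They stood at 0.583, 0.203 and 0.636 FPKM in the control and 18.4, 21 and 69.5 in the tumor. The defining markers of bile ducts were under 1 FPKM in both libraries and are not among the compared genes. In the control, non-tumor section and tumor, Krt19 stood at 0.659, 4.61 and 0.12 FPKM, and Krt7 at 0.323, 5.77 and 0.332. Both were thus highest in the non-tumor section among the 12M libraries and at the control level or below in the tumor. Epcam, an adhesion molecule of duct cells, followed the same pattern, at 0.511, 1.7 and 0.444 FPKM. The keratins of hepatocytes and simple epithelia, Krt8 and Krt18, were higher, from 127 to 881 FPKM and from 109 to 1105 FPKM, and the cytoskeleton list gave 31 higher and 0 lower (27 and 0 relative to the shift, 4 more in the tumor only) of 40 measured. Vim, vimentin, of mesenchymal cells, stood at 9.53, 46.4 and 307 FPKM in the control, the non-tumor section and the tumor.

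**Figure D4:**
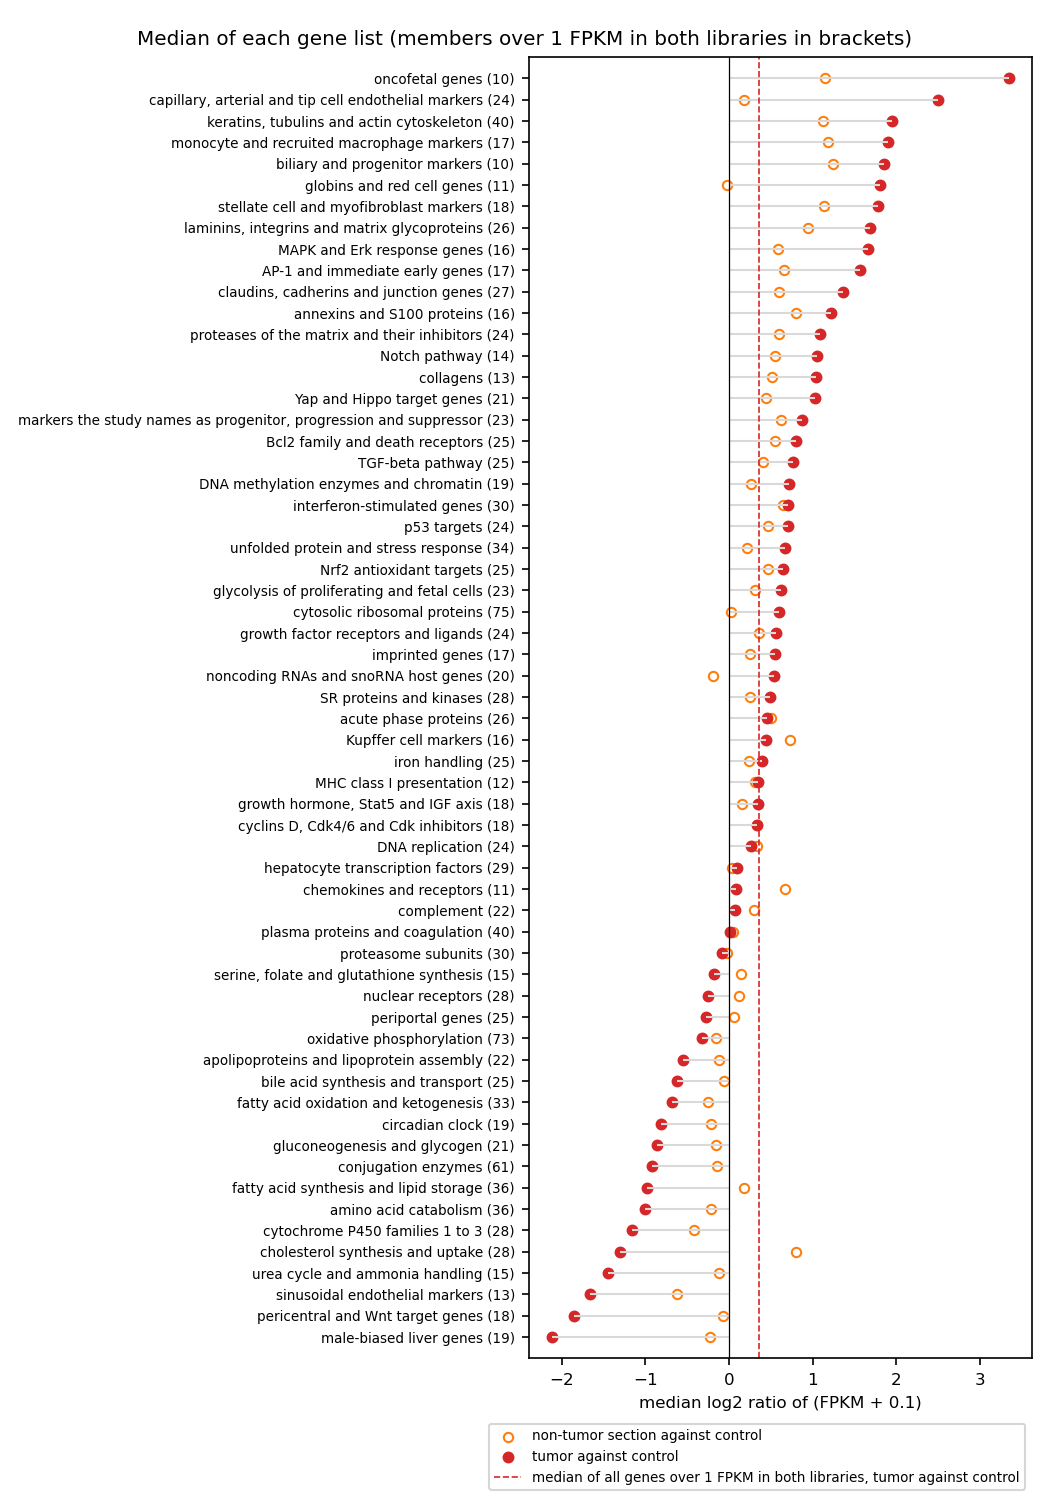
Median log2 ratio of FPKM + 0.1 (x axis) over the members with over 1 FPKM in both the control and the tumor, for each gene list with at least 10 of them (rows, with their number), in the tumor (filled) and the non-tumor section (open), over the same members and against the same 12M control library. The dashed line is the tumor's median over all 9501 such genes, 0.36. The lists run from male-biased liver genes, at -2.11, to oncofetal genes, at 3.35, and cholesterol synthesis lies left of 0 in the tumor and right of it in the non-tumor section.

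Endothelial markers differed by the kind of vessel. Of 13 measured markers of sinusoidal endothelium, 4 were higher and 8 lower (3 and 9 relative to the shift, 7 more in the control only), with a median of -1.66, and of 24 markers of capillary, arterial and tip cells, 19 were higher and 0 lower (19 and 0 relative to the shift, 15 more in the tumor only), with a median of 2.50. In the non-tumor section the medians over the same members were -0.62 and 0.18. Clec4g and Stab2, receptors of sinusoidal cells, stood at 36.4 and 6.29 FPKM in the control, 18.3 and 3.95 in the non-tumor section, and then 0.224 and 0.252 in the tumor. Markers shared by all endothelium were higher, with Pecam1 at 7.43, 7.41 and 82 FPKM and Cdh5 at 9.42, 9.46 and 90.1 in the same order. Cd34, of capillaries, was higher, from 0.456 to 99.8 FPKM, and Apln, Esm1 and Angpt2, of sprouting tip cells, from 0.127 to 39.2 FPKM, from 0.704 to 53.6 FPKM and from 0.168 to 35.2 FPKM. Pgf and Vegfa, which guide vessels, stood at 17 and 85.9 FPKM in the tumor and at 0 and 25.9 in the control. Kdr, the main receptor of Vegfa, had a log2 ratio of 0.18. Hemoglobin transcripts were also higher, with Hba-a1 at 78.4 FPKM in the control and 354 in the tumor and Hbb-bs at 137 FPKM in the control and 749 in the tumor, although Alas2, the heme enzyme of red cell precursors, was lower, from 122 to 31.8 FPKM.

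Macrophage markers differed by kind as well. The genes that define Kupffer cells were nearly absent from the tumor, with Clec4f at 41.3, 32.5 and 0.0115 FPKM in the control, non-tumor section and tumor, and Vsig4 at 19.2, 16.2 and 0.116. Timd4 was listed at 0 in the tumor, and Cd5l was lower, from 52.3 to 0.394 FPKM. Genes that other macrophages share lay between the thresholds, with the complement genes C1qa and C1qb at 51.9 FPKM in the control and 86 in the tumor and at 56.9 FPKM in the control and 102 in the tumor, Adgre1, the F4/80 antigen, at 4.59 FPKM in the control and 5.41 in the tumor, and Csf1r, the receptor of macrophage growth factor, at 12.9 FPKM in the control and 8.73 in the tumor. The Kupffer list gave 4 higher and 1 lower (3 and 1 relative to the shift, 1 more in the tumor only, 8 more in the control only) of 16 measured. Of 17 measured markers of monocytes and recruited macrophages, 12 were higher and 3 lower (9 and 3 relative to the shift, 7 more in the tumor only, 1 more in the control only), with a median of 1.90, and Trem2, Lyz2 and Cd14 were higher, from 2.23 to 9.26 FPKM, from 57.6 to 269 FPKM and from 1.58 to 147 FPKM. Cd14 and Spp1 are also made by hepatocytes and duct cells under stress. Of 12 MHC class II genes, 2 were measured and both were higher, with 6 more in the tumor only. Cd74, the invariant chain, stood at 33.3, 190.1 and 1306 FPKM in the control, the non-tumor section and the tumor.

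Defining lymphocyte and neutrophil markers were low in both libraries, and of 35 T and NK cell markers only 6 passed 1 FPKM in either. The T cell gene Cd3e stood at 0.188 FPKM in the control and 0.64 in the tumor, the B cell gene Cd79a at 1.16 FPKM in the control and 0.793 in the tumor, and Ly6g, of neutrophils, was listed at 0 in both. S100a8 and S100a9, of neutrophils, were at 0.29 and 2.93 FPKM in the control, 5.13 and 8.43 in the non-tumor section, and then 1.55 and 4.92 in the tumor, with the non-tumor section highest among the 12M libraries, whereas the 2M HKO liver had 36.9 and 85.4. Summed over all members, the T and NK cell list reached 13.1 FPKM in the control and 26.8 in the tumor, the Kupffer list 628 and 686, the monocyte and macrophage list 214 and 2814, and the capillary, arterial and tip cell list 187 and 1655. The part of these cells in the higher transcripts of signalling, matrix and other lists was not tested. Chemokines and their receptors gave 3 higher and 2 lower (3 and 3 relative to the shift, 13 more in the tumor only, 2 more in the control only) of 11 measured. Cxcr4 and Ackr3, both receptors of Cxcl12, were higher, from 0.391 to 95.7 FPKM and from 0.172 to 33.7 FPKM, while Cxcl12 had a log2 ratio of -0.94. Of 30 measured interferon-stimulated genes, 13 were higher and 1 lower (9 and 1 relative to the shift, 10 more in the tumor only), with Oas1a at 1.07 FPKM in the control and 7.95 in the tumor and Isg15 at 6.47 FPKM in the control and 16.2 in the tumor, while Cxcl9, which interferon gamma induces, was lower, from 2.96 to 1.18 FPKM.

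Genes of the matrix were mostly higher, in basement membranes and in fibrous collagen. Of 13 measured collagens and their enzymes, 7 were higher and 0 lower (6 and 0 relative to the shift, 15 more in the tumor only, 1 more in the control only), with a median of 1.04, and of 26 laminins, integrins and matrix glycoproteins, 20 were higher and 1 lower (17 and 1 relative to the shift, 18 more in the tumor only, 1 more in the control only), with a median of 1.68. Col4a1, of basement membranes, stood at 4.59, 17.3 and 218 FPKM in the control, non-tumor section and tumor, and Sparc, a collagen-binding protein, at 17.4, 58.2 and 521. Col1a1 and Col3a1, of fibrous scar, stood at 27 and 45.3 FPKM in the tumor and 11.7 and 20.6 in the non-tumor section. Both kinds of collagen were thus higher in the tumor than in the non-tumor section. Lum and Mmp2, of fibroblasts, were close between the sections, at 21.8 and 8.13 FPKM in the non-tumor section and 21.6 and 8.89 in the tumor. Lrat, which stores vitamin A in resting stellate cells, was at 2.44, 3.22 and 0.684 FPKM in the control, the non-tumor section and the tumor, and Acta2, of contractile cells, at 1.42, 3.15 and 14. Rgs5 and Cspg4, of pericytes, which wrap capillaries, were higher, from 4.67 to 59.1 FPKM and from 0.00353 to 2.31 FPKM. Of 24 measured matrix proteases and inhibitors, 13 were higher and 1 lower (10 and 1 relative to the shift, 21 more in the tumor only). The plasminogen activators Plat and Plau stood at 0.0111 and 0.619 FPKM in the control and 18.4 and 18.2 in the tumor. Both were over 1 FPKM in the tumor only, which fixes their direction.

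Genes of cell junctions were mostly higher, with 16 higher and 2 lower (14 and 2 relative to the shift, 3 more in the tumor only, 1 more in the control only) of 27 measured. Cldn2, a pericentral claudin, was lower, from 33.4 to 0.775 FPKM, and Gjb1, the main hepatocyte connexin, from 499.6 to 157 FPKM, while Gja1, a connexin of other tissues, was higher, from 0.944 to 15.5 FPKM and Cdh1, E-cadherin, from 2.83 to 22.8 FPKM.

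Subunits of the proteasome and of oxidative phosphorylation lay near the control, while ribosomal protein and stress response genes lay above it with the typical gene. Of 30 proteasome subunits, 1 were higher and 0 lower (0 and 1 relative to the shift, 1 more in the control only), with a median of -0.08, and of 73 subunits of oxidative phosphorylation, 0 were higher and 7 lower (0 and 15 relative to the shift, 1 more in the control only), with a median of -0.33. The mitochondrially encoded genes made up 6.5% of the summed FPKM of the control and 4.9% of that of the tumor, with COX1 at 20868 FPKM in the control and 13803 in the tumor. Of 75 cytosolic ribosomal protein genes, 11 were higher and 0 lower (3 and 0 relative to the shift, 1 more in the tumor only), with a median of 0.59 in the tumor and 0.02 over the same members in the non-tumor section. Over all genes over 1 FPKM in both libraries the median was 0.36. Of 34 genes of the unfolded protein and stress response, 9 were higher and 1 lower (5 and 1 relative to the shift, 1 more in the tumor only), with a median of 0.67, and with Trib3 and Ddit3, which follow prolonged stress, higher, from 3.47 to 26 FPKM and from 2.14 to 8.44 FPKM, and the chaperone Hspa5 at a log2 ratio of 0.88.

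Ratios also differed by chromosome. For each chromosome, the median log2 ratio of its genes was set against the median of 0.30 over all 6596 genes with a mean over 5 FPKM. Genes of chromosomes 15, 16 and 17 lay 0.69, 0.63 and 0.43 above it, and those of chromosomes 7, 18 and 1 lay 0.34, 0.31 and 0.26 above it. Genes of chromosomes X and 13 were at -0.80 and -0.76, and those of 14, 4, 9, 12, 10 and 19 were between -0.33 and -0.21. In all, 14 of 20 chromosomes lay more than 0.2 from the median in the tumor. For the non-tumor section against the same control, 0 of 20 did, with a range of -0.15 to 0.07, and between the 2 control livers the range was -0.06 to 0.04. The chromosome of each gene was taken from the location field of the deposited table, which did not match the gene for some records. DNA was not measured.

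**Figure D5:**
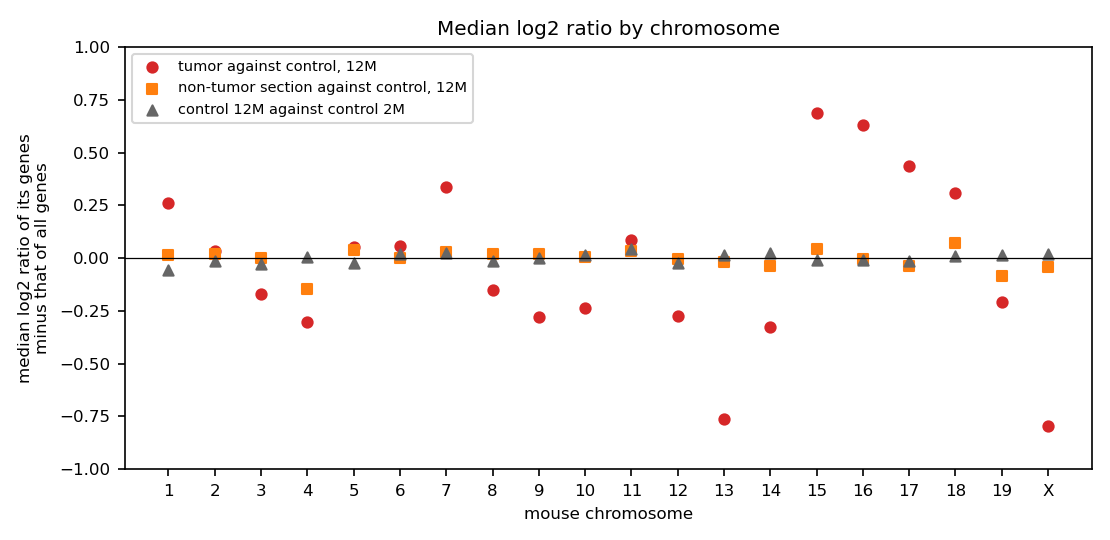
Median log2 ratio of the genes of each mouse chromosome (x axis), given as its distance from the median of all 6596 genes (y axis), for the tumor (circles) and the non-tumor section (squares) against the 12M control, and for the 12M against the 2M control (triangles). The squares and triangles lie within 0.15 of 0, while the circles spread from -0.80 for chromosome X to 0.69 for chromosome 15.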

How the data were processed

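Total RNA of 5 mouse livers or liver sections was sequenced in read pairs, 1 library each. The authors deposited FPKM per gene record (per the file headers), and the submitters' processing notes name Bowtie 0.12.2 and GRCm38. FPKM values were used as deposited. Values multiplied by gene length were whole multiples of 1 step within 0.01 for 98.7% to 98.8% of values, from which fragments were counted. The small counts were even more often than odd, so mates may have been counted separately and intervals may be too narrow. Genes over 1 FPKM in either library were compared as log2 of FPKM + 0.1, with thresholds of 1 and -1. A floor of 3 fragments per library stood for 0 fragments. With 1 library a group, no test was run. The threshold on FPKM and the counting step were checked on simulated data. The members and gene lists were chosen with earlier results of these data known. Genes named were the 15 highest and 15 lowest log2 ratios with over 5 FPKM in either library, predicted genes left out, the 10 most abundant genes, up to 8 members a list by absolute log2 ratio, cell type markers, genes the study names as markers, and Srsf2. Other genes were named after their values were seen, among them neighbours in a region, paired isozymes and list members between the thresholds. Some description and location fields of the deposited table did not match their gene. Description fields were not used. Chromosomes, gene positions, regions and distances between genes rest on the location field as deposited, so single positions may be wrong. Sequences and positions of miRNAs and promoters are those of RefSeq, GRCm38.p6. Shared Mup transcript sequence was computed on GENCODE M21. Computation was in Python 3.11.15 with pandas 2.3.3, scipy 1.17.1 and numpy 2.4.6, and plots in matplotlib 3.10.9.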

Additional observations from a re-analysis of the deposited data

How the results depend on the processing

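The alternatives were other pseudocounts, other minimum levels, other scalings, TPM in place of FPKM and leaving out predicted genes, and 0 calls of named genes were reversed under them. Under either scaling, 6 named genes with small ratios changed sign without a call, among them Apoe, Gc, Trf and Xbp1, and 1 did under TPM. With a minimum of 5 FPKM, genes higher in tumor than control numbered 2067 and genes lower in tumor than control 717. With a pseudocount of 1 they numbered 2843 and 863, and 357 named ratios moved, the log2 ratio of Csn3 to 6.46, the log2 ratio of Hsd3b5 to -7.5 and the log2 ratio of Mup3 to -8.47, with Tff3 then above Csn3. With no minimum they numbered 5799 and 1758, and the median log2 ratio over all genes was 0.39. Scaling by the median ratio gave 1655 lower genes and a median of 0.13, upper quartile scaling a median of 0.17, and TPM a median of 0.63. Of 467 named genes called, 445 kept their call with a pseudocount of 1 and 446 of 464 under either scaling. No paired analysis was possible because each group has 1 library. Leaving out a replicate was not possible for the same reason, and levels near 0 rest on few fragments.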
